A study of Arabidopsis thaliana with 108 samples.

Results

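LEC1, LEC2, FUS3, ABI3, L1L and DOG1 of Arabidopsis thaliana control seed maturation and dormancy, and the peaks that ChIP-seq placed on them are described here. The 6 genes were taken by their TAIR10 loci (AT1G21970, AT1G28300, AT3G26790, AT3G24650, AT5G47670 and AT5G45830), from 27444 protein-coding genes among 37899 genes on the 5 chromosomes. For each gene the span was the gene body plus 1 kb upstream, and the value was the covered length, which is the number of bp of the span inside a peak of one library. The rule itself uses no measured value. The study asked where the telomere repeat binding factors TRB1, TRB2 and TRB3 and the H3K4me3 demethylase JMJ14 bind, and how H3K4me3 and H3K27me3 depend on them. Of 108 samples, 46 libraries with a peak list were used and the other 62 were not analysed here. All plants were of the Col-0 ecotype.

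FLAG ChIP-seq had 4 libraries for each tagged TRB protein (FLAG-TRB1, FLAG-TRB2, FLAG-TRB3) and 2 for FLAG-JMJ14. These plants carried FLAG-tagged genomic transgenes driven by the promoters of the tagged genes, and by the study's account each TRB transgene sat in the mutant of its own gene. The labels call the tissue floral, from plants of 5 to 6 weeks, and the methods name flower buds. Seedlings of 2 to 3 weeks gave H3K4me3 and H3K27me3 libraries of Col-0 and of trb1/2/3, a triple T-DNA mutant that combines trb1-2, trb2 and trb3, with 2 libraries for each mark and genotype. The jmj14-1 T-DNA mutant gave a single H3K4me3 library. A further experiment compared fwa, an epiallele without DNA methylation at the FWA promoter, with TRB1-ZF, TRB2-ZF and TRB3-ZF. These are early-flowering T2 lines of fwa plants in which a TRB protein was fused to FLAG and to the zinc finger ZF108, which was built to bind the FWA promoter, so that all 4 groups share the fwa background. For H3K4me3 there were 3 libraries each of fwa and TRB1-ZF and 2 each of TRB2-ZF and TRB3-ZF, and for H3K27me3 there were 2 of each. The methods describe fusions driven by the promoter of each TRB gene and, for TRB3, a further one driven by UBQ10, and the labels do not say which TRB3 construct was used. The labels again give floral tissue of 5 to 6 weeks, whereas the methods name leaves of 4 to 5 weeks. Myc ChIP-seq of leaves at 3 to 4 weeks gave 5 lists of a Myc-JMJ14 transgene under its own promoter, 1 in Col-0, 2 in TRB1-ZF and 1 each in TRB2-ZF and TRB3-ZF plants. The sources do not say that libraries came from separate plants, so p-values measure the spread between these libraries, which may be technical. Peak lists hold no read counts, and the depth behind each value is unknown.

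The seed program runs during embryo maturation and is shut off after germination. LEC1 and its close relative L1L are B subunits of the NF-Y transcription factor (the HAP3 family), while LEC2, FUS3 and ABI3 are B3-domain transcription factors that bind the RY motif CATGCA in promoters of seed genes. DOG1 sets the depth of seed dormancy. In vegetative plants, Polycomb Repressive Complex 2 (PRC2) marks most of these genes with H3K27me3, a histone modification of silent genes. The B3 repressors VAL1 and VAL2 take part in their silencing through the RY motif. H3K4me3 marks active genes. TRB proteins bind the telobox, a short stretch of the telomere repeat, and are known to bring in PRC2.

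The members lay on 3 chromosomes, and FLAG peaks fell on 4 of them. Stretches under the recurrent peaks that held a telobox or an RY motif are printed here from the TAIR10 sequence of RefSeq, on the strand of the gene and 5′ to 3′, with distances counted in bp from the gene start. Capitals mark the telobox core TTAGGG or its complement CCCTAA, a longer telobox form AAACCCTA or its complement TAGGGTTT, the RY core CATGCA or its complement TGCATG, and a motif known for NAC partners of JMJ14, CTTG, any 5 bases, CAAG. The longer form was added after the peaks had been seen, and it overlaps TTAGGG on the other strand wherever an A follows it. LEC2 (chr1:9896867-9899876, minus strand) had most peak summits near a core in the coding part of exon 1, at chr1:9899358-9899557, and the flank of the peaks reached a longer form in the coding exon 2, at chr1:9899112-9899186.
LEC2 exon 1: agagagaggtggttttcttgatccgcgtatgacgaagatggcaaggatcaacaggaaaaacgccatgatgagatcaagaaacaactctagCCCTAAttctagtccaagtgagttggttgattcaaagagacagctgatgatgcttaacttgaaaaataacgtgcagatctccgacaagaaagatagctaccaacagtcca
LEC2 exon 2: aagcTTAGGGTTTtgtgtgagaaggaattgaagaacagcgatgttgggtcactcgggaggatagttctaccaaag
FUS3 (chr3:9853828-9856212, minus strand) is shown by its promoter, at chr3:9856213-9856462, which the peaks entered and which held a core and an RY motif, and by the site in the 5′ UTR nearest to the summits, at chr3:9856062-9856091.
FUS3 promoter: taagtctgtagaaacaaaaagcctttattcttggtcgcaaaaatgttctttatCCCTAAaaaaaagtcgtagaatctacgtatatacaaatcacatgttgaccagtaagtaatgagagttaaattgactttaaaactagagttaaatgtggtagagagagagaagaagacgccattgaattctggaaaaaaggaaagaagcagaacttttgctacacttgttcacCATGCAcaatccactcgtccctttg
FUS3 5′ UTR: taatcttccaAAACCCTAgattcatgaatg
ABI3 (chr3:8997370-9001185, plus strand) is shown by the 5′ UTR site under the first peak, at chr3:8997847-8997876, and by both coding stretches of exon 1 under the second, at chr3:8998490-8998689 and chr3:8998870-8998939.
ABI3 5′ UTR: tactaaAAACCCTAActtttctctctccac
ABI3 exon 1, first stretch: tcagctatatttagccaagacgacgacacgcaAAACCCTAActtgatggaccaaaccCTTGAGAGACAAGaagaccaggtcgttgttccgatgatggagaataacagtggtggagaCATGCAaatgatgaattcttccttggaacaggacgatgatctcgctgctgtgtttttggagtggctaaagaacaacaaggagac
ABI3 exon 1, second stretch: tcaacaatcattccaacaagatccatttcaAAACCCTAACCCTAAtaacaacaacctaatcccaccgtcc
DOG1 (chr5:18589418-18591506, minus strand) is shown by an RY motif in exon 3 that lay under every FLAG-TRB peak of this gene, at chr5:18589715-18589744.
DOG1 exon 3: agtaatattcgaTGCATGtacaactgtgaa
LEC1 (chr1:7727577-7729649, minus strand) and L1L (chr5:19314778-19316169, plus strand) had no FLAG peak in the span, and no stretch of them is shown.

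Both strands of each span were searched for the same motifs. TTAGGG occurred 5 times in ABI3, 4 times in LEC2, once in FUS3 and once in L1L, and not in LEC1 or DOG1. AAACCCTA occurred 4 times in ABI3 and once each in LEC2 and FUS3. CATGCA occurred 9 times in ABI3, 7 times in DOG1, 5 times in LEC1, 2 times in L1L, once in FUS3 and not in LEC2. The CTTG motif occurred once each in ABI3 and L1L. Among the spans of all protein-coding genes, 65.9% held TTAGGG, 65.1% CATGCA, 36.5% AAACCCTA and 12.3% the CTTG motif, so that the presence of a short motif somewhere in a span is common. In the 300 bases from 250 before to 50 after the gene start the shares were 12.3%, 9.72%, 6.22% and 0.904%, in the same order.

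Before the members are compared, 3 features of the libraries need stating. The H3K27me3 lists of TRB1-ZF replicate 2 and TRB2-ZF replicate 2 were identical in all 11610 peaks, so those values count as one library in 2 groups, and the counts of calls and the DOG1 values that rest on them are also given without them. In the fwa experiment, replicate 2 stood apart. H3K4me3 covered all 6 floral organ genes examined (AG, AP3, PI, SEP1, SEP2 and SEP3) in every replicate 1 and 3, with a summed covered length of 7203 to 8420 bp, but 0 or 1 of them in replicate 2 of each of the 4 groups, with 0 to 535 bp. In the seedling lists, H3K4me3 covered none of the 6 in Col-0 or jmj14 and 5 and 2 of them in trb1/2/3. The number of peaks per list varied from 3279 to 22509 for FLAG, from 16030 to 17764 for H3K4me3 and from 10198 to 14323 for H3K27me3. FLAG-TRB1 lists held 10302 to 22365 peaks, FLAG-TRB2 lists 6202 to 22509 and FLAG-TRB3 lists 3279 to 20475.

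**Figure D1:**
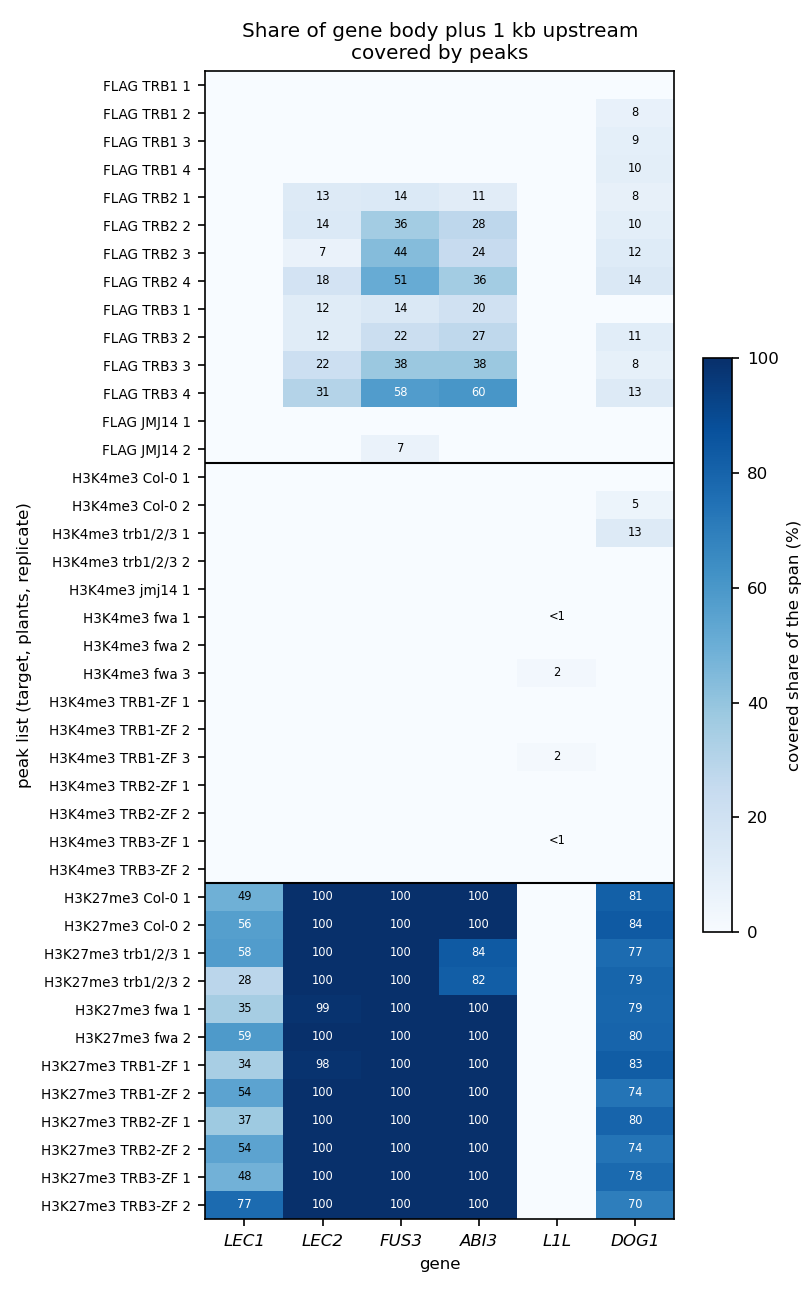
Covered share of each span (%, colour and printed value) for the 6 genes in columns and the 41 FLAG, H3K4me3 and H3K27me3 peak lists in rows, each row 1 library. LEC2, FUS3 and ABI3 have FLAG cover in every TRB2 and TRB3 list and in no TRB1 list, 5 genes have H3K27me3 in all 12 lists, and H3K4me3 is nearly absent.

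The B3 genes LEC2, FUS3 and ABI3 carried FLAG-TRB2 and FLAG-TRB3 peaks in all 8 lists and a FLAG-TRB1 peak in none of 4, a pattern that 0.288% of all protein-coding genes had. On ABI3, which encodes the B3 factor of the abscisic acid response in seeds, FLAG-TRB2 covered 528, 1322, 1169 and 1730 bp in replicates 1, 2, 3 and 4, and FLAG-TRB3 covered 956, 1311, 1827 and 2904 bp. On FUS3, FLAG-TRB2 covered 470, 1216, 1479 and 1727 bp and FLAG-TRB3 491, 759, 1286 and 1945 bp. On LEC2, FLAG-TRB2 covered 510, 562, 266 and 723 bp and FLAG-TRB3 464, 464, 867 and 1233 bp. All 12 values of FLAG-TRB1 on these 3 genes were 0, so the groups did not overlap, whereas FLAG-TRB2 and FLAG-TRB3 overlapped on each gene. Replicate 4 was the highest for both factors on each gene, and it was also the longest list of either factor (22509 peaks for FLAG-TRB2 and 20475 for FLAG-TRB3). FLAG-JMJ14 covered 224 bp of FUS3 in replicate 2, in an intron with the summit at 1633 bp from the gene start, and nothing else on any member. At least 1 FLAG-JMJ14 peak was found on 21.5% of all protein-coding genes. None of the 5 Myc-JMJ14 lists from leaves, which held 296 to 1032 peaks on 0.794 to 4.3% of all genes, had a peak on a member.

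**Figure D2:**
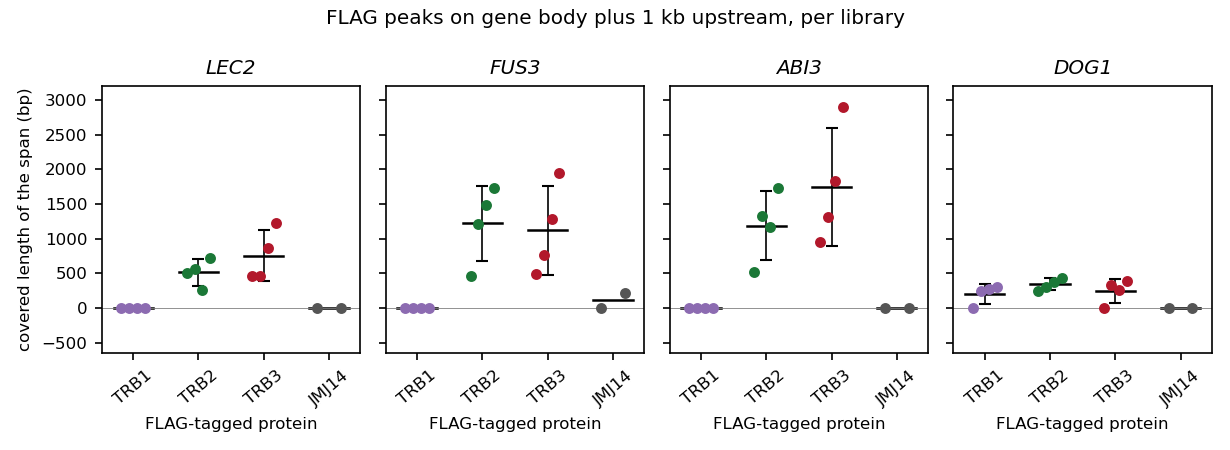
Covered length of the span (bp) by FLAG peaks on LEC2, FUS3, ABI3 and DOG1. Points are libraries (4 for each TRB protein, 2 for JMJ14), horizontal lines are means and error bars are SD over 4 libraries. On the first 3 genes all FLAG-TRB1 points are at 0 and all FLAG-TRB2 and FLAG-TRB3 points lie above, while on DOG1 the 3 TRB proteins overlap.

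Mean covered lengths (± SD, n = 4) on LEC2 were 515 ± 189 bp for FLAG-TRB2 and 757 ± 370 bp for FLAG-TRB3. They were 1223 ± 544 and 1120 ± 641 bp on FUS3, and 1187 ± 499 and 1750 ± 849 bp on ABI3. Each of these 6 differences from FLAG-TRB1 gave a two-sided exact permutation p of 0.0286, the smallest that 4 against 4 libraries can give. The test was run after the separation had been seen, and groups that do not overlap must give this p, so it restates the values. Between FLAG-TRB3 and FLAG-TRB2 the exact permutation p was 0.343 for LEC2, 0.914 for FUS3 and 0.343 for ABI3. In a limma fit over 21064 genes with Benjamini-Hochberg adjustment, FLAG-TRB3 exceeded FLAG-TRB1 on ABI3 by 1749.5 bp (SE 356, adjusted p = 0.0235) and on LEC2 by 757 bp (SE 171, adjusted p = 0.0314), while FUS3 had a difference of 1120 bp (SE 305, adjusted p = 0.0503). Of all genes tested 0.328% were called higher and 5.21% in either direction. LEC2, FUS3 and ABI3 had no FLAG-TRB1 peak and entered this fit only through other lists, and the test was chosen after the peaks had been seen, so nothing is read from the count of 2 members. Both calls were lost when FLAG-TRB1 replicate 3 or 4 or FLAG-TRB3 replicate 1, 2 or 3 was left out, with adjusted p of 0.0542 to 0.0926 for ABI3 and 0.0571 to 0.121 for LEC2, and ABI3 ranged from 0.000273 to 0.241 and LEC2 from 0.00569 to 0.328 over all 16 alternatives. For FLAG-TRB2 against FLAG-TRB1, limma called 0 of the 4 members, with adjusted p of 0.0748 for FUS3, 0.108 for ABI3 and 0.131 for LEC2. Without adjustment, 3 of the 4 had a p under 0.05, as had 5242 of the 21064 genes. After adjustment 1.04% of all genes were called, and those called higher were 0.171%. On a log2(covered bp + 100) scale all 3 B3 genes passed in both comparisons, with limma adjusted p of 0.000273 to 0.0166. There 0.622% of all genes were called higher in FLAG-TRB2 and 0.646% in FLAG-TRB3. All FLAG-TRB1 values of the 3 genes were 0, and this fit too was chosen after the peaks had been seen. Nothing is read from these calls. Between FLAG-TRB3 and FLAG-TRB2 limma called 0 of 21064 genes (0%), with 33 at an unadjusted p under 0.05, and no member was among the calls.

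The pattern of the 3 B3 genes was rare. A peak in all 8 FLAG-TRB2 and FLAG-TRB3 lists was found on 3056 protein-coding genes (11.1%), and 2677 of these (87.6%) also had a FLAG-TRB1 peak in all 4 lists. Only 79 genes (0.288%) had all 8 and no FLAG-TRB1 peak, and LEC2, FUS3 and ABI3 were 3 of them. H3K27me3 was found in all 12 lists on 77 of the 79 (0.281% of all genes with both properties), compared with 5535 of all 27444 genes (20.2%). The count was taken after the peaks of the members had been seen. It was 3 of 6 members also with at least 100 bp required, with the gene body alone and with 2 kb upstream. When every FLAG list was shortened to its 3279 peaks of highest −log10 q, only FUS3 kept the pattern, and when only peaks with a −log10 q of at least 10 were counted, no member had it.

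The peaks of the 3 genes recurred at the same places, most of them inside the gene. On LEC2, 8 of 10 peaks, 1 in each FLAG-TRB2 and FLAG-TRB3 list, had summits between 375 and 563 bp from the gene start, 7 of them in the coding part of exon 1 and 1 in an intron, and FLAG-TRB2 replicate 4 and FLAG-TRB3 replicate 3 each added a peak upstream with summits at −209 and −152 bp. On FUS3, 8 of 11 TRB peaks had summits between 40 and 164 bp, in the 5′ UTR, and the other 3 lay between 1729 and 1947 bp. On ABI3, the 8 first peaks had summits between 380 and 540 bp, in the 5′ UTR. ABI3 had further summits between 1153 and 1567 bp, in the coding part of exon 1, and between 3508 and 3538 bp, in the 3′ UTR, and a single upstream summit at −761 bp in FLAG-TRB3 replicate 4. A telobox of either form lay inside 8 of 10 TRB peaks on LEC2, 8 of 11 on FUS3 and 14 of 19 on ABI3. Where one lay within 1 kb of the summit, the median distance to the nearest was 19.0 bp on LEC2, 45.0 bp on FUS3 and 14.5 bp on ABI3. The core TTAGGG alone lay inside 8 of 10 peaks on LEC2 and 14 of 19 on ABI3, as many as either form. On FUS3 the core alone lay inside 6 of 11 peaks, at a median of 284 bp from the summit. The FUS3 values for either form thus rest on AAACCCTA, which was added after the peaks had been seen. The RY motif lay inside 8 of 11 TRB peaks on FUS3 and 15 of 19 on ABI3, at a median of 112 and 67.5 bp from the summit, and in none of 10 on LEC2. Over whole lists, 29.1 to 50.8% of the 300-base windows around all summits of a FLAG-TRB2 list held TTAGGG, 32.5 to 65.8% of a FLAG-TRB3 list and 25.2 to 35.0% of a FLAG-TRB1 list. Those shares are for TTAGGG alone in a fixed window and cannot be set directly against whole peaks and either form. The matches describe the sequence and do not show that a site was bound.

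Peak heights were moderate within their own lists. The fold enrichment of the main FUS3 peak was 2.85 to 4.13, above 55.4 to 94.2% of the peaks of its list. The first ABI3 peak had a fold of 2.22 to 4.40, above 8.64 to 92.4%. The LEC2 peak in exon 1 had a fold of 2.17 to 2.82, above 6.83 to 75.8%. Among these peaks, the highest fold on LEC2 (2.82) was just below the lowest of the main FUS3 peak (2.85), which came from another list. The range of the first ABI3 peak overlapped both. The other TRB peaks on FUS3 had folds of 1.82 to 1.96. The TRB and JMJ14 peaks of these 3 genes numbered 10 on LEC2, 12 on FUS3 and 19 on ABI3. Each summit lay inside the H3K27me3 peaks of both Col-0 seedling lists, with the tissues being different. Those H3K27me3 peaks covered the whole span of each gene, so any summit within a span had to lie inside. Nothing is read from these counts.

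**Figure D3:**
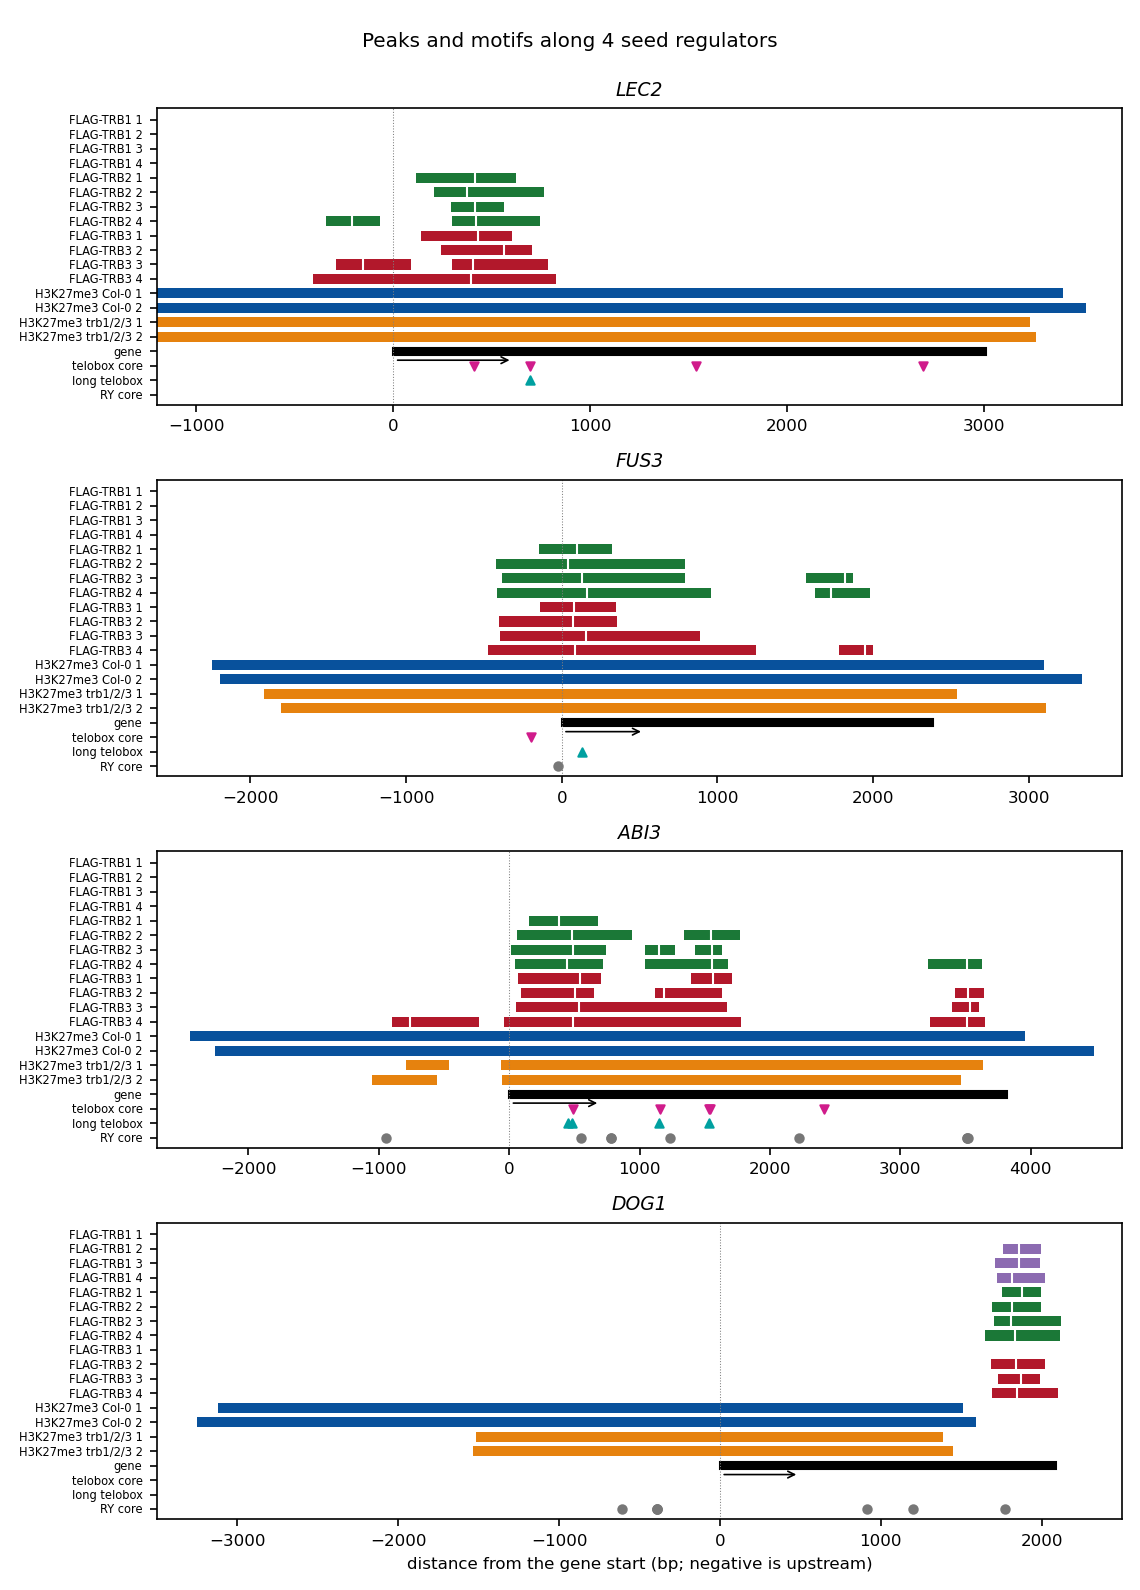
FLAG-TRB peaks (purple TRB1, green TRB2, red TRB3, white line at the summit), H3K27me3 peaks of Col-0 (blue) and trb1/2/3 (orange) and motif positions (telobox core TTAGGG, long telobox AAACCCTA, RY core CATGCA) along LEC2, FUS3, ABI3 and DOG1, in bp from the gene start, with the gene in black and 1 row per library. The Col-0 H3K27me3 peaks cover the whole spans of LEC2, FUS3 and ABI3, so all FLAG summits there lie inside. On DOG1 the FLAG summits lie past the 3′ edge of these peaks.

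On DOG1, all 3 TRB proteins gave peaks, and these lay at the 3′ end of the gene. FLAG-TRB1 covered 0, 241, 280 and 302 bp in replicates 1, 2, 3 and 4, FLAG-TRB2 242, 307, 383 and 439 bp, and FLAG-TRB3 0, 336, 261 and 398 bp. The 3 factors overlapped, and 10 of the 12 lists had a peak, which also held for at least 10 lists on 22.1% of all genes. The exact permutation p against FLAG-TRB1 was 0.114 for FLAG-TRB2 and 0.600 for FLAG-TRB3, with differences of 137 and 43 bp. All 10 summits lay between 1812 and 1877 bp from the gene start, in exon 3 at the end of the coding sequence or in the 3′ UTR. Both Col-0 H3K27me3 peaks ended before them, at 1513 and 1591 bp, so that 0 of 10 summits were inside. Each of the 10 peaks held the RY motif of exon 3, at a median of 67.5 bp from the summit, and none held a telobox of either form. The RY motif was found in 5.94 to 10.5% of the 300-base windows around TRB summits of a list. The 10 peaks are calls of a single place in different libraries and are whole peaks, so that share cannot be set directly against them. The folds of these peaks were 2.27 to 4.08, above 26.5 to 93.0% of their lists.

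No FLAG peak touched the spans of the NF-YB genes LEC1 and L1L in any of 14 lists, which was the case for 20.6% of all protein-coding genes. With 2 kb upstream instead of 1 kb, LEC1 still had none, whereas L1L was covered over 277 to 655 bp in all 4 FLAG-TRB1 lists and over 565 and 569 bp in FLAG-TRB2 replicates 3 and 4, and not in FLAG-TRB3 or FLAG-JMJ14.

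H3K27me3 covered 5 of the 6 genes in all 12 lists and L1L in none, compared with 20.2% of all genes in all 12. In Col-0 seedlings, LEC2, FUS3 and ABI3 were covered over 100% of the span in both libraries. DOG1 was covered over 81.4 and 83.9%, and LEC1, the gene of an early embryo regulator, over 49.2 and 56.3%. The 3 B3 genes thus ranked above DOG1, DOG1 above LEC1 and LEC1 above L1L, and the 2 libraries of neighbouring ranks did not overlap. The peak over LEC2 was the longest, with 20609 and 21239 bp in Col-0, and its upstream edges lay at −17208 and −17719 bp. Its fold of 5.93 and 5.83 was above 97.0 and 93.6% of the peaks of the list. The mark on LEC1 was split into 3 peaks with folds of 2.49 to 4.77, the strongest of which lay mostly beyond the span, from −2556 to −964 bp in replicate 1 and from −2625 to −921 bp in replicate 2.

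In trb1/2/3 seedlings, H3K27me3 covered less of ABI3 than in Col-0, and the mark still filled the spans of LEC2 and FUS3. The full peaks on LEC2, FUS3, ABI3 and DOG1 were shorter. ABI3 was covered over all 4816 bp in both Col-0 libraries and over 4029 and 3970 bp in trb1/2/3. The single Col-0 peak of 6404 and 6746 bp was replaced by a peak of 3696 and 3520 bp over the gene, which began at −61 and −52 bp, and a separate upstream peak of 333 and 504 bp. The fold of the main ABI3 peak was 5.85 and 6.63 in Col-0 and 4.53 and 3.95 in trb1/2/3. DOG1 was covered over 2514 and 2592 bp in Col-0 and 2386 and 2450 bp in trb1/2/3. Its upstream edge moved from −3119 and −3251 bp to −1515 and −1535 bp, and the peak shortened from 4633 and 4843 bp to 2901 and 2985 bp. On both genes the libraries of the 2 genotypes did not overlap in covered length or in full peak length. The share of all genes without such overlap in covered length is not given here. The median difference of all genes in covered length was −148 bp. FUS3 and LEC2 also had shorter peaks in both mutant libraries, with 4453 and 4917 bp against 5346 and 5537 bp on FUS3, and 17671 and 17668 bp against 20609 and 21239 bp on LEC2. A peak shorter in both mutant libraries than in both Col-0 libraries was found on 59.4% of the 10214 genes tested. LEC1 was covered over 1512 and 1729 bp in Col-0 and 1773 and 869 bp in trb1/2/3, and its upstream peak of 1567 bp in trb1/2/3 replicate 1 had no counterpart touching the span in replicate 2. With 2 kb upstream, LEC1 was covered over 1706 bp in that library, so that a peak lay there beyond 1 kb. A loss of the mark in fewer cells and a weaker mark per cell cannot be told apart in these bulk samples.

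**Figure D4:**
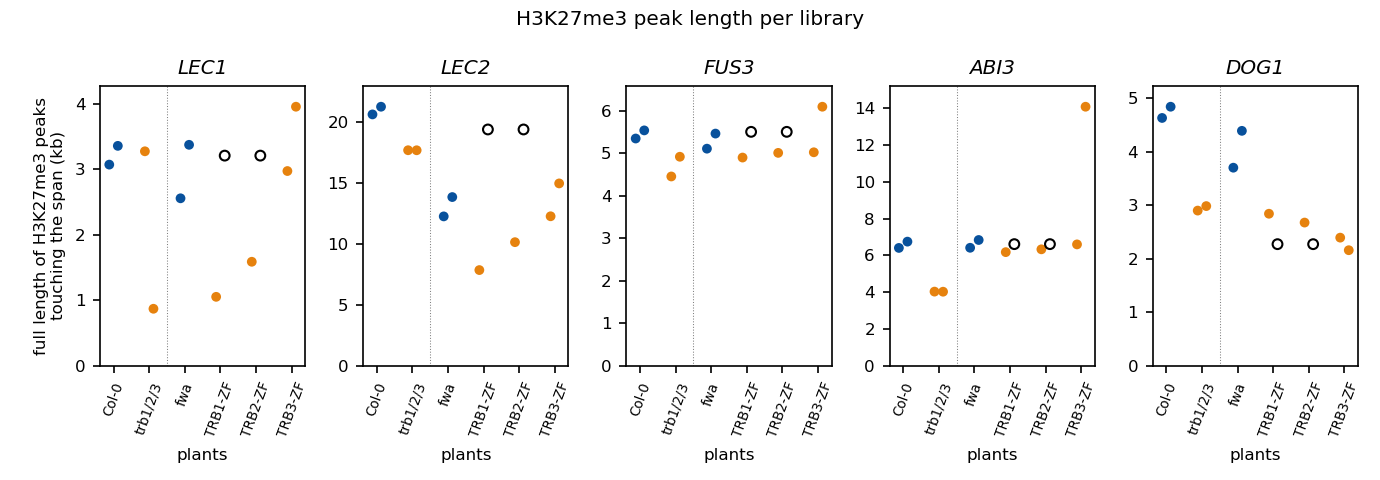
Full length (kb) of the H3K27me3 peaks that touch the span of LEC1, LEC2, FUS3, ABI3 and DOG1, with 2 libraries per group as points (blue Col-0 and fwa, orange the mutant and the TRB-ZF lines). A dotted line separates the seedling experiment from the fwa experiment, and open circles are the 2 identical lists. On LEC2, FUS3, ABI3 and DOG1 both trb1/2/3 points lie below both Col-0 points, as on 59.4% of the genes tested. On DOG1 all TRB-ZF points lie below both fwa points, as on 8.70% of the genes tested. Peaks that do not touch the span are left out.

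In the limma fit, ABI3 was the only member called, with a difference of −816.5 bp (SE 28.6, Benjamini-Hochberg adjusted p = 0.00720). Against this 1 of 5 members with the mark stood 24.8% of the 10214 genes tested, of which those called lower were 20.2%, and the median difference of all genes was −148 bp. Both Col-0 values of ABI3 are the full span and so have no spread of their own. Within the gene body alone the difference was −264.5 bp and was not called (adjusted p = 0.159). The adjusted p of ABI3 ranged from 0.00471 to 0.159 over 12 alternatives and passed in 10. DOG1 had a difference of −135 bp (SE 45.7, adjusted p = 0.145) within the span. With the full length of the peaks, an alternative chosen after the data were seen, limma called ABI3 (−2548.5 bp, adjusted p = 0.00801) and DOG1 (−1795 bp, adjusted p = 0.00900) but not LEC2 (−3254.5 bp, adjusted p = 0.0737), FUS3 (−756.5 bp, adjusted p = 0.121) or LEC1 (−1141 bp, adjusted p = 0.411, with the peak beyond 1 kb in replicate 2 not counted). On that scale 26.6% of all genes were called lower and the median difference was −414 bp. LEC1 within the span had −299.5 bp (adjusted p = 0.601), and LEC2 and FUS3 had 0 bp.

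Other genes of the seed program were read beside the members from lists chosen with earlier results of these data known. Of 11 further seed regulators and partners, 6 had H3K27me3 in the seedling lists, and 1 was called lower in trb1/2/3, with a median of −184 bp. This was AGL15, a MADS-box factor that promotes embryo development, which fell by 1443 bp (SE 29.9, limma adjusted p = 0.00541). Of 15 seed storage and LEA genes, 13 had the mark in all 12 lists, 3 were called lower and none higher, with a median of −188 bp, beside 20.2% and −148 bp for all genes tested. These were EM6 and EM1, which encode LEA proteins of late embryos, with −1091.5 and −458.5 bp (limma adjusted p = 0.00599 and 0.0148), and OLEO4, which encodes an oleosin of oil bodies, with −835.5 bp (limma adjusted p = 0.0388). All 4 relatives of DOG1 (DOGL1, DOGL2, DOGL3 and DOGL4) had H3K27me3 in all 12 lists and H3K4me3 in none, and none was called, with a median of −93.8 bp. Of the 6 floral organ genes 3 were called lower, with a median of −360 bp. Of 3 photosynthesis genes (RBCS1A, LHCB1.1 and LHCB1.3) all 3 were called lower, with summed cover of 3562 and 3656 bp in Col-0 and 42 and 0 bp in trb1/2/3. The part of these shifts in the values of the members was not tested.

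Among the same 11 regulators, ABI4, an AP2 factor of abscisic acid signalling in seeds, had the FLAG pattern of the B3 genes, with a peak in all 8 FLAG-TRB2 and FLAG-TRB3 lists, in no FLAG-TRB1 list and H3K27me3 in all 12. Its covered length exceeded that of FLAG-TRB1 by 1133 bp in FLAG-TRB2 and by 1031.5 bp in FLAG-TRB3 (limma adjusted p = 0.0215 and 0.0180). It was the only gene of the list called in these comparisons. Of all genes tested, 0.171% were called higher in FLAG-TRB2 and 0.328% in FLAG-TRB3. ABI4 had no FLAG-TRB1 peak and entered these fits only through other lists. The test was chosen after the peaks had been seen, so nothing is read from these calls. BBM, an AP2 factor that can induce embryos, had no FLAG-TRB1 peak, 3 of 4 FLAG-TRB2 and 3 of 4 FLAG-TRB3 lists and both FLAG-JMJ14 lists. None of the 5 repressors of the seed program (VAL1, VAL2, VAL3, PKL and ASIL1) had the pattern. All 5 had FLAG-TRB1 peaks, 4 had H3K4me3 in all 15 lists, and H3K27me3 was found on VAL1 only, in 4 lists.

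In the fwa experiment, H3K27me3 again covered the whole of FUS3 and ABI3 in all 8 lists and 98.5 to 100% of LEC2. DOG1 was covered over 2442 and 2465 bp in fwa, 2550 and 2273 bp in TRB1-ZF, 2466 and 2273 bp in TRB2-ZF and 2395 and 2160 bp in TRB3-ZF, for replicates 1 and 2. LEC1 was covered over 1080 and 1800 bp in fwa, 1051 and 1668 bp in TRB1-ZF, 1147 and 1668 bp in TRB2-ZF and 1487 and 2376 bp in TRB3-ZF. On LEC1, TRB3-ZF was the highest within each replicate number, and the ranges of all groups overlapped. Every replicate 1 lay below every replicate 2, so that the libraries separated by replicate number. These are the same numbers that separated on the floral organ genes in H3K4me3, and the part of that split in the LEC1 values was not tested. limma called 0 of 5 members in each of the 3 comparisons with fwa, and none had an unadjusted p under 0.05. Calls over all 10707 genes were 0.0187% for TRB1-ZF, 0.0187% for TRB2-ZF and 2.66% (285 genes) for TRB3-ZF. Same-numbered libraries deviated together in this experiment, and with the replicate block TRB3-ZF had 516 genes called higher and 267 lower, and still 0 members, with LEC1 at 491.5 bp above fwa (limma adjusted p = 0.576 without and 0.0696 with the block). Without the identical lists, 0 genes were called in each comparison, with 438, 934 and 1825 at an unadjusted p under 0.05 for TRB1-ZF, TRB2-ZF and TRB3-ZF. TRB1-ZF and TRB2-ZF then had 1 library each, which was assumed to vary like those of the other groups. In that setting DOG1 differed from fwa by 96.5 bp in TRB1-ZF and 12.5 bp in TRB2-ZF, instead of −42 and −84 bp.

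The full length of H3K27me3 peaks on DOG1, summed over the peaks that touch the span, was shorter in every TRB-ZF library than in both fwa libraries, as on 8.70% of the 10707 genes tested. It measured 3703 and 4392 bp in fwa (in replicate 1 as a pair of peaks), 2842 and 2273 bp in TRB1-ZF, 2677 and 2273 bp in TRB2-ZF and 2395 and 2160 bp in TRB3-ZF (in both replicates as a pair of peaks). Peaks further upstream are not in this sum: with 2 kb upstream, DOG1 was covered over 3459 bp in TRB1-ZF replicate 1 and over 3442 and 3465 bp in fwa, while the other TRB-ZF lists gave 2336 to 2677 bp. Within replicate 1 the lengths fell from fwa through TRB1-ZF and TRB2-ZF to TRB3-ZF, and within replicate 2 the identical lists lay between fwa and TRB3-ZF. The upstream edge reached −2261 and −2927 bp in fwa, −1292 and −927 bp in TRB1-ZF, −1211 and −927 bp in TRB2-ZF and −985 and −918 bp in TRB3-ZF. The limma adjusted p on this scale was 1 for TRB1-ZF, 0.782 for TRB2-ZF and 0.151 for TRB3-ZF, and with the replicate block 0.736, 0.494 and 0.0867, so that no difference passed. Calls on this scale were 0.121%, 0.112% and 1.56% of all genes. The 3 comparisons share the fwa libraries. LEC2 peaks ranged from 7844 bp in TRB1-ZF replicate 1 to 19374 bp in replicate 2, with 12246 and 13831 bp in fwa, and the groups overlapped. The ABI3 peak measured 6175 to 6835 bp in 7 lists and 14080 bp in TRB3-ZF replicate 2, where its upstream edge lay at −9508 bp (limma adjusted p = 0.477 for TRB3-ZF against fwa).

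No H3K4me3 peak was called on LEC1, LEC2, FUS3 or ABI3 in any of 15 lists, as on 26.1% of all protein-coding genes. DOG1 had a weak H3K4me3 peak in 2 lists. It covered 163 bp in Col-0 replicate 2 and 392 bp in trb1/2/3 replicate 1 and 0 bp in the other replicate of each genotype, so that the genotypes overlapped. Both summits lay in exon 2, at 1002 and 1029 bp from the gene start, and inside the H3K27me3 peak. Their folds of 3.40 and 1.97 were above 15.5 and 3.84% of the peaks of their lists. The difference of 114.5 bp between trb1/2/3 and Col-0 was not called (limma adjusted p = 1, and 0.749 to 1.00 over 10 alternatives). Over all 19289 genes limma called none in this comparison (0%), with 956 at an unadjusted p under 0.05. In the single jmj14 library no member had a peak, and 0 members lay at least 200 bp outside both Col-0 values, compared with 9.53% of 18850 genes. That comparison has no replicate check.

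On L1L, H3K4me3 reached the span only by the edge of a peak whose summit lay between −1548 and −1528 bp. It covered 9, 0 and 59 bp in fwa, 0, 0 and 51 bp in TRB1-ZF, 0 and 0 bp in TRB2-ZF and 4 and 0 bp in TRB3-ZF, in replicate order. Each library with cover was a replicate 1 or 3, and the groups overlapped. L1L was not called against fwa in any line (limma adjusted p = 1 in each), and the calls over all 19369 genes were 0.0155% for TRB1-ZF, 0.0258% for TRB2-ZF and 0.0103% for TRB3-ZF. No other member had H3K4me3 in the fwa experiment.

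Likeness to other genes was measured as the mean absolute difference in covered share of the span over the 41 FLAG, H3K4me3 and H3K27me3 lists. The genes closest to LEC2 were RR19 (1.15 percentage points), which encodes a response regulator, and SWEET10 (1.22), which encodes a sugar transporter. FUS3 was closest to TCP1 (1.70), a TCP transcription factor gene, and AT3G02245 (1.73). ABI3 was closest to AT2G03500 (2.00) and SK9 (2.20). LEC1 was closest to AT1G68390 (1.48) and AT5G16740 (1.66), and DOG1 to AT5G13250 (2.52) and AT2G39040 (2.91). L1L, with almost no cover, was closest to AT1G10190 (0.0949) and AT4G28160 (0.105). No gene had the same values as a member in all 41 lists.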

How the data were processed

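Peaks of 46 ChIP-seq libraries were analysed, and groups and replicate numbers came from the labels. The authors trimmed reads with Trim Galore, aligned them to TAIR10 with Bowtie 2 (unique hits, 0 mismatches), removed duplicates with SAMtools (version 1.9 in the submitters' notes), called peaks with MACS2 (version 2.1.1) and removed places that gave peaks in more than one Col-0 replicate. What the calls were made against is not given in the sources used here. A deposited peak list gives per peak a score, a fold enrichment (a ratio over the caller's background), a −log10 p-value and a −log10 q-value, and the offset of the summit. The deposited score and −log10 p were not used, the deposited fold was used for ranks within a list, and the deposited −log10 q for a stricter threshold of 10 and for lists of equal length. The deposited bisulfite tables hold a count of reads per cytosine without normalization by the authors, and served only to check the reference: all 124 positions with at least 20 reads had the same context.

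Overlapping intervals were merged, and covered bp were computed with Python 3.11.15 and numpy 2.4.6 for genes of the RefSeq annotation. Groups were compared with limma 3.58.1 (trend) in R 4.3.3 over all genes with a peak in at least 1 library of the fit, with Benjamini-Hochberg adjustment and a threshold of 0.05, and FLAG values also with exact permutation tests (scipy 1.17.1). The design gave FLAG lists no test, and the limma and permutation tests of FLAG values, the full length of the peaks and the fits without the identical lists were added after the peaks were seen. The members and gene lists were chosen with earlier results of these data known. Genes named by rule were those of the lists past the test in a comparison in which a member also passed, and the 2 genes most like each member. ABI4 is also given for FLAG-TRB2 against FLAG-TRB1, in which no member passed. The relatives of DOG1, the repressors and the floral organ and photosynthesis genes were named as whole lists. BBM and VAL1 were singled out after their values were seen. In simulated data with changes of 1500 bp in 200 genes, limma called 100% of them for H3K27me3 in trb1/2/3 and 42.5 to 48% for H3K27me3 in the TRB-ZF lines. Pairing by replicate number was tested by correlating the deviations of libraries from their group means. All 13 same-numbered pairs for H3K4me3 (0.675 to 0.890) and all 12 for H3K27me3 (0.534 to 0.797) of the fwa experiment deviated together. With 2 libraries in a group the deviations are equal and opposite. The 12 H3K27me3 values therefore repeat between replicate numbers and are not independent. Those of TRB1-ZF with TRB2-ZF also hold the identical lists. The numbers were taken to pair the libraries of this experiment. Alternatives were the gene body alone, 2 kb upstream, a −log10 q of at least 10, no filter on genes without peaks, a log2 scale with 100 bp added, the replicate block, lists of equal length, the full length of peaks and each library left out. Col-0 FLAG libraries, RNA-seq and the other samples were not analysed here.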

Additional observations from a re-analysis of the deposited data

How the results depend on the processing

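Across the settings tried, 146 of the comparison-level values kept their call count or stayed close to it, and 17 did not. A change between 2 and 3 called members, or a swap of members at the same count, was taken as kept. A comparison with 0 called members that stayed at 0 was also taken as kept. The 146 therefore do not measure how stable the calls are. Of the values of single members, 189 kept direction and call, 16 lost the call, 16 gained it and 9 changed sign. H3K27me3 in trb1/2/3 had 1 called member, which became 0 with the gene body alone, 2 with 2 kb upstream, 2 with the full length of the peaks and 0 with the replicate block (ABI3 limma adjusted p = 0.0811, with 0 genes called in all against 2528). Over all genes, 2060 were lower, against 1059 with the gene body alone, 887 without the filter, 2817 with 2 kb upstream and 871 to 2371 when a library was left out. FLAG-TRB2 against FLAG-TRB1 had 0 called members, with 2 for the gene body alone, 3 on the log2 scale, 3 with the replicate block and 1 with equal-length lists. FLAG-TRB3 against FLAG-TRB1 had 2 (LEC2 and ABI3), with FUS3 in place of LEC2 for equal-length lists (LEC2 116 bp, limma adjusted p = 0.328), 1 for 2 kb upstream, 0 at a −log10 q of at least 10 and 0 to 3 when a library was left out. Over all genes, 36 and 69 were higher in these comparisons, against 444 and 405 with the replicate block, 295 and 285 with equal-length lists, 1 and 2 at a −log10 q of at least 10, and 0 to 45 and 0 to 96 when a library was left out. Same-numbered FLAG libraries correlated at −0.134 to 0.726 and were not taken as pairs. The pattern of all 8 FLAG-TRB2 and FLAG-TRB3 lists without FLAG-TRB1 fell from 3 members to 0 at a −log10 q of at least 10 and to 1 with equal-length lists.

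Leaving out a library moved LEC1 H3K27me3 in trb1/2/3 between −751.5 and 152.5 bp, and DOG1 H3K4me3 between −81.5 and 310.5 bp, with −81.5 bp also for equal-length lists. For DOG1 H3K27me3 against fwa it gave −180.5 to 96.5 bp in TRB1-ZF and −180.5 to 12.5 bp in TRB2-ZF, with 96.5 and 12.5 bp also without the identical lists. For DOG1 FLAG-TRB3 against FLAG-TRB1 it gave −25.6 to 125.9 bp. The causes were not tested. In H3K4me3 of trb1/2/3, 0 genes were called in all settings except no filter (7), without Col-0 replicate 1 (253 higher, 10 lower) and without trb1/2/3 replicate 2 (943). On the log2 scale and with the replicate block FUS3 also passed for FLAG-TRB3 against FLAG-TRB1 (limma adjusted p = 0.00598 with the block), and no further call of a member changed. Lists without read counts leave depth unknown, a covered length cannot exceed the span, and a length of 0 means that no peak was called at the authors' threshold.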
